A study of Mus musculus with 20 samples.

Results

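The regions described here are the mouse Hoxa cluster, the Hoxb cluster and the Cyp26a1 locus, 3 places where retinoic acid (RA) acts on transcription, as they appear in chromatin immunoprecipitation (ChIP-seq) peak lists of Oct4 and Sox proteins. Peaks were taken by position: a peak belonged to a region when its midpoint fell in chr6:52050000-52260000 (Hoxa), chr11:96030000-96280000 (Hoxb) or chr19:37720000-37830000 (Cyp26a1, the gene lying at about 37.77 Mb), all in build mm9. The windows were drawn around Hoxa2, Hoxa3, Hoxa5, Hoxb1, Hoxb2, Hoxb4, Hoxb5 and Cyp26a1 along with their neighbours. Across 18 lists, 1180 of 765133 peaks met the rule. Merging intervals that overlapped gave 141 sites, 47 in the Hoxa window, 67 in the Hoxb window and 27 in the Cyp26a1 window.

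Hox genes encode homeodomain factors that set position along the body axis, and RA switches the clusters on in order, starting with the genes at their 3′ end. Hoxa2 and Hoxb1 pattern segments of the hindbrain, and Hoxb1 is among the first Hox genes that RA induces. RA enters the nucleus and binds RAR-RXR receptor pairs on direct repeats of a hexamer in the DNA. Cyp26a1 encodes a cytochrome P450 that degrades RA, and its own gene is among the strongest RA targets, which closes a feedback loop. Oct4 (Pou5f1) is a POU-domain factor of pluripotent cells that pairs with HMG-box Sox factors on neighbouring DNA motifs: Sox2 in pluripotent cells and Sox17 in primitive endoderm.

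F9+RA cells were F9 embryonal carcinoma cells given 1 µM RA, described in the labels as resembling primitive endoderm, and F9 cells were the same line left undifferentiated. Each F9 library is the only one of its kind: Oct4 in F9+RA cells, Oct4 in F9 cells and Sox17 in F9+RA cells, each with an antibody to the protein itself. The other libraries came from KH2 embryonic stem (ES) cells, a line built for doxycycline-inducible transgenes, given doxycycline at 1 µg/ml to express a V5-tagged Sox2, Sox17EK, Sox2KE or Sox17. Sox2 and Sox17EK carry a lysine at a residue of the HMG box that faces Oct4, and Sox2KE and Sox17 carry a glutamate there. Each protein had 2 Sox libraries (replicates A and B). The Oct4 libraries of the same lines numbered 2 for each line except the Sox17 line, which had only replicate A. Per the labels, V5 was the single antibody of the Sox2, Sox17EK and Sox2KE libraries, while the Sox17 libraries of ES cells list Sox17 with V5 and the Oct4 libraries of ES cells list Oct4 with V5. The labels do not say whether a line was a single clone.

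Each peak carries a score from the authors, read as 10 times −log10 of the peak caller's p-value. Scores depend on the depth of a library, which was unknown, so each peak was also given its rank within its own list and that rank as a percent of the list length (the rank percent, where a small value is a strong peak). List lengths ran between 5836 and 84196 peaks, and with 1 library per F9 condition no test between F9+RA and F9 was possible. A difference in rank percent describes the place of a site within lists of different lengths and does not show a change in binding.

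The genes could be matched to sequence but not to peaks, since the sequence table is in build GRCm38.p6 and the peaks are in mm9. Promoters spanning 250 bases before to 50 bases after the start site were taken from RefSeq (GRCm38.p6), where 6 of the 8 genes had an entry. Hoxb2 and Hoxb5 had none. The promoters of Cyp26a1 and Hoxb1 are printed because they held, in turn, a motif of RA receptors and a motif of a Sox-Oct pair that few promoters hold. The capitals in Cyp26a1 (chr19:37697558-37697857, plus strand) mark a DR5, a direct repeat of 2 receptor hexamers 5 bases apart, found on the opposite strand. The capitals in Hoxb1 (chr11:96365508-96365807, plus strand) mark a Sox-Oct composite, the bases TTGT and ATGNNAAT with 1 base between them.
Cyp26a1: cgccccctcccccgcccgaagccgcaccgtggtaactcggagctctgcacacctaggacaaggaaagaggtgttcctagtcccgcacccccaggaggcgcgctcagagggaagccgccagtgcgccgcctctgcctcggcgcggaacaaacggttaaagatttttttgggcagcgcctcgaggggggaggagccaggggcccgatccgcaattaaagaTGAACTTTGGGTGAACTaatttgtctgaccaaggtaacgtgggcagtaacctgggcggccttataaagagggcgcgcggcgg
Hoxb1: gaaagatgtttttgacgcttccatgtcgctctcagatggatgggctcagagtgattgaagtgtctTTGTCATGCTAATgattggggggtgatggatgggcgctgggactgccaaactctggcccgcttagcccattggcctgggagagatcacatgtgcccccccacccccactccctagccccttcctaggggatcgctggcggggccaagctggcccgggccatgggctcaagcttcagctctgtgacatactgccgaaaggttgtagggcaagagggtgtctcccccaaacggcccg

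The hexamers searched were AGGTCA along with the variant forms AGTTCA, then also GGGTCA, and lastly also GGTTCA, in direct repeats 1, 2 or 5 bases apart on either strand. The DR5 of Cyp26a1 lay at bases -32 to -16 before the start site. A DR5 occurred in 0.0974% of 32851 promoters of the table, and in no other of the 6 matched genes. Repeats spaced by 1 base (0.222% of promoters) or by 2 bases (0.268%) were not found in the windows of these 6 genes. Of 19 other RA pathway genes, 13 had entries, and among those the RA receptor gene Rarb held a DR5, at bases -53 to -37. The 14 other Hox genes of the clusters had entries for 7, and none held one.

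The composite of Hoxb1 lay at bases -185 to -173 and occurred in 0.113% of promoters. This motif was added after the sequences had been seen. The looser Oct form ATGNNAAT, which overlaps the composite, was present in Hoxa2 and Hoxb1 and in 12.5% of all promoters. The Sox core ACAAT was present in Hoxa2, Hoxa3 and Hoxa5, against 31.0% of all promoters. The octamer ATGCAAAT was in none of the 6 and in 1.74% of promoters. A match describes letters in the window and is not evidence of binding.

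The 3 windows held many peaks in the F9 libraries. The Hoxa window held 38 Oct4 peaks in F9+RA cells against 33 in F9 cells, and 14 Sox17 peaks in F9+RA cells. The Hoxb window held 43 Oct4 peaks in F9+RA cells, 40 in F9 cells and 13 Sox17 peaks. The Cyp26a1 window held 16 Oct4 peaks in F9+RA cells, 9 in F9 cells and 5 Sox17 peaks. Each window held more Oct4 than Sox17 peaks, and more Oct4 peaks in the longer F9+RA list than in the F9 list. A stretch of the genome as wide as the Hoxa window (210 kb) held a median of 3 Oct4 peaks in F9+RA cells against 2 in F9 cells. Only 1.35% of such stretches in the F9+RA list and 1.05% in the F9 list had as many peaks as the Hoxa window. For the Hoxb window (250 kb) the share was 1.49% in the F9+RA list and 0.890% in the F9 list. For the Cyp26a1 window (110 kb) it was 3.81% in the F9+RA list and 9.02% in the F9 list. In the Sox17 list of F9+RA cells the shares were 3.68% for Hoxa, 6.64% for Hoxb and 11.0% for Cyp26a1. By these shares the Cyp26a1 window was less unusual in its density than the Hox windows in all 3 lists, and its Oct4 density was rarer in the F9+RA list than in the F9 list.

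**Figure D1:**
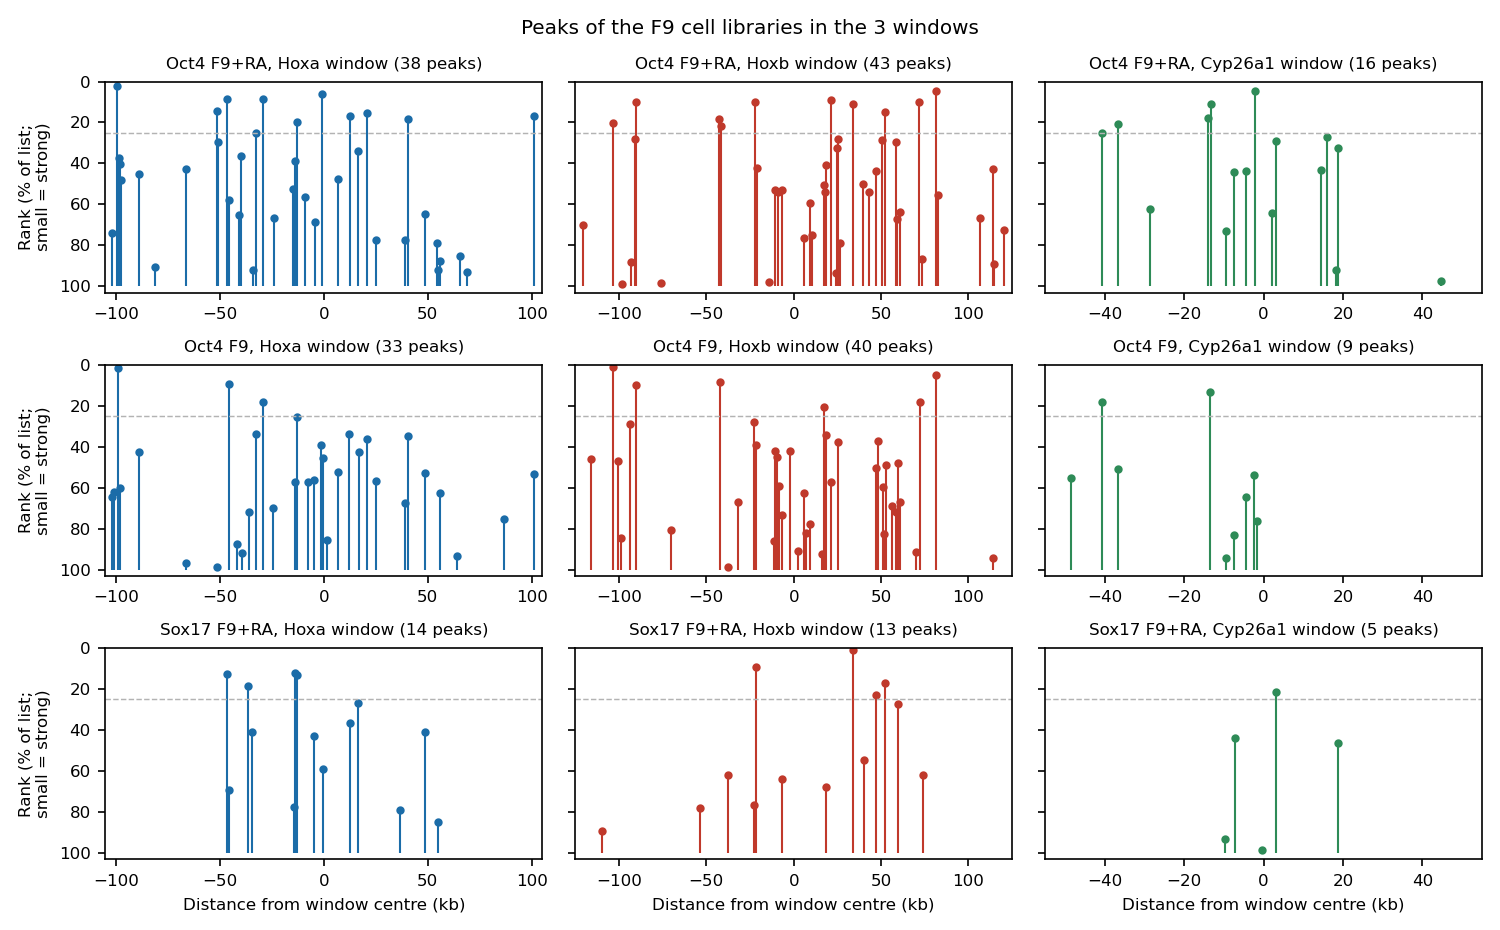
Every peak of the 3 F9 libraries in the 3 windows, at its distance from the window centre in kb (x axis) and its rank percent within its own list (y axis, strong peaks at the top; the dashed line is 25%). In the Cyp26a1 window Oct4 peaks of F9+RA cells continue to the right of the centre, where the F9 list has none. This stretch was picked out after it had been seen and was drawn to start after the last F9 peak.

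Of 97 Oct4 window peaks of F9+RA cells, 62 had an overlapping peak in F9 cells and 35 (36.1%) had none, against 42.7% without one in the whole list. By window these were 12 of 38 in Hoxa, 15 of 43 in Hoxb and 8 of 16 in Cyp26a1. In the other direction, 24 of 82 F9 window peaks (29.3%) had no overlapping peak in F9+RA cells, against 31.7% of the whole list. These were 8 of 33 in Hoxa, 15 of 40 in Hoxb and 1 of 9 in Cyp26a1. These counts depend on what counts as a match and on how many peaks are used. Without a partner were 57 of 97 F9+RA window peaks (58.8%, against 57.9% genome-wide) when midpoints had to lie within 200 bp. They were 13 of 49 (26.5%, against 30.2%) among the 39768 strongest peaks of each list, and 15 of 49 (30.6%, against 32.2%) at scores of at least 100. For F9 window peaks the shares were 51.2%, 33.3% and 33.3% under these settings, against 45.1%, 34.1% and 31.5% genome-wide.

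Peaks of a single condition were mostly weak, in the windows as in the whole lists. Counted by peak, the 35 of F9+RA cells had a median rank percent of 69.9%, against 69.6% for all 35986 F9+RA peaks without an F9 partner. The 24 of F9 cells had a median of 77.9%, against 73.6% for all 20499 F9 peaks without an F9+RA partner. In the strongest 25% of its list was 1 of the 35 (against 5.47% of those in the whole list) and 0 of the 24 (against 2.91%). The 23 sites with an Oct4 peak in F9+RA cells but not in F9 cells had a median rank percent of 66.4%, and 1 of them was in the strongest 25% of its list. The 17 sites with an Oct4 peak in F9 cells but not in F9+RA cells had a median of 71.7%, and 0 were in the strongest 25%. The strongest of these was in the Hoxb window at 96202868 to 96203783, with a score of 166 at 37.4% of the F9 list. Of all window peaks, 25 of 97 (25.8%) of F9+RA cells and 11 of 82 (13.4%) of F9 cells were in the strongest 25% of their list.

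Of the sites that both Oct4 lists of F9 cells held in the Cyp26a1 window, one near the stated position of the gene differed most in rank. At 37771831 to 37773903 the Oct4 peak of F9+RA cells scored 609 and ranked 3796 of 84196, at 4.51% of the list. The strongest overlapping peak of F9 cells, at 37772113 to 37773109, scored 109 and ranked 34725 of 64582, at 53.8% of the list. A second F9 peak under the same F9+RA peak, at 37773130 to 37773632, scored 70.2. The site was thus among the strong Oct4 peaks of F9+RA cells and below the middle of the F9 list, a difference of -49.3 rank points (F9+RA minus F9).

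All 7 Oct4 libraries of ES cells also had a peak at the merged Cyp26a1 site, 37770091 to 37773922. Among lysine lines, Sox2 cells scored 304 and 98.5 and Sox17EK cells 673 and 315 (A and B). Among glutamate lines, Sox2KE cells scored 127 and 64.3 and Sox17 cells 129. The rank percents ran between 13.4% (Sox17EK line A) and 82.3% (Sox2KE line B), and in none of the 7 lists did the site rank as high as the 4.51% of F9+RA cells. Of the 8 Sox libraries of ES cells, Sox17EK A (77.6) and Sox2KE B (239) had a peak. The Sox17 list of F9+RA cells had no peak at this site.

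Beyond it lay further Oct4 peaks of F9+RA cells. The last Oct4 peak of F9 cells in the window ended at 37773632, and 7 Oct4 peaks of F9+RA cells lay further along the chromosome. The stretch was drawn to start after that F9 peak, so its lack of F9 peaks follows from the definition. The strongest were at 37790474 to 37791325, with a score of 173 at 27.3% of the list, and at 37777862 to 37778454, with 162 at 29.2%. The next, at 37793479 to 37794084, scored 145 at 32.5%. The weakest scored 51.2 at 97.1%, and another scored 53.5 at 92.0%. In the whole window 8 of 16 Oct4 peaks of F9+RA cells had no overlapping F9 peak, against 42.7% of the whole list. These 8 include the 7 of the stretch, and 0 of the 8 were in the strongest 25% of the list. This stretch was singled out after its values had been seen.

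Sox17 of F9+RA cells joined Oct4 at part of that stretch. At 37777862 to 37778454 its peak scored 106 at 21.4% of the Sox17 list, its best place in the window, and at 37793468 to 37793866 it scored 70.1 at 46.6%. Apart from Oct4 and Sox17 of F9+RA cells, no library had a peak at 37777862 to 37778454. The site at 37790474 to 37791325 was held by Oct4 of F9+RA cells alone of all 18 libraries. In ES cells 5 libraries had any peak along the stretch: 1 in Sox17EK B, 2 in Sox2KE A, 3 in Sox2KE B, 1 in Oct4 of Sox17EK line A and 3 in Oct4 of Sox2KE line A.

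Before the merged site at 37770091 to 37773922, 5 sites were held by both lists. At 37760676 to 37762950 Oct4 scored 367 (10.9%) in F9+RA cells against 412 (13.2%) in F9 cells. At 37734008 to 37734717 it scored 188 (24.9%) in F9+RA cells against 325 (18.3%) in F9 cells, the one site of both lists in this window that ranked higher in F9 cells. At 37738119 to 37738801 it scored 222 (20.8%) in F9+RA cells against 116 (51.0%) in F9 cells. At 37767148 to 37768021 it scored 107 (44.1%) in F9+RA cells against 63.1 (83.1%) in F9 cells, and at 37765241 to 37765739 it scored 65.9 (73.0%) in F9+RA cells against 53.7 (94.1%) in F9 cells. The last 3 sites differed by -30.3, -38.9 and -21.1 rank points (F9+RA minus F9), and the first by -2.35. Within that merged site, a further Oct4 site of both lists at 37770112 to 37770785 scored 107 (43.9%) in F9+RA cells against 86.4 (64.6%) in F9 cells. The site with an Oct4 peak in F9 cells alone, 37726169 to 37726867, scored 105.

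Over all windows, 54 sites were held by both Oct4 lists when only these 2 lists were merged. Of these, 35 ranked higher in F9+RA cells, against 60.0% of 43126 such sites in the genome. They were 16 of 24 in the Hoxa window, 13 of 23 in Hoxb and 6 of 7 in Cyp26a1. The median difference (F9+RA minus F9) was -7.04 rank points in Hoxa, -3.22 in Hoxb and -21.1 in Cyp26a1, against -3.62 over all sites. The Cyp26a1 median thus lay further from that of all sites than either Hox window, on 7 sites and 1 library per condition.

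Large shifts occurred in both directions. Sites that ranked at least 25 points higher in F9+RA cells numbered 12 of 54, against 16.9% of all sites: 4 in Hoxa, 5 in Hoxb and 3 in Cyp26a1. Sites at least 25 points higher in F9 cells numbered 3 of 54, against 10.2% of all sites: 1 in Hoxa, 2 in Hoxb and 0 in Cyp26a1.

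**Figure D2:**
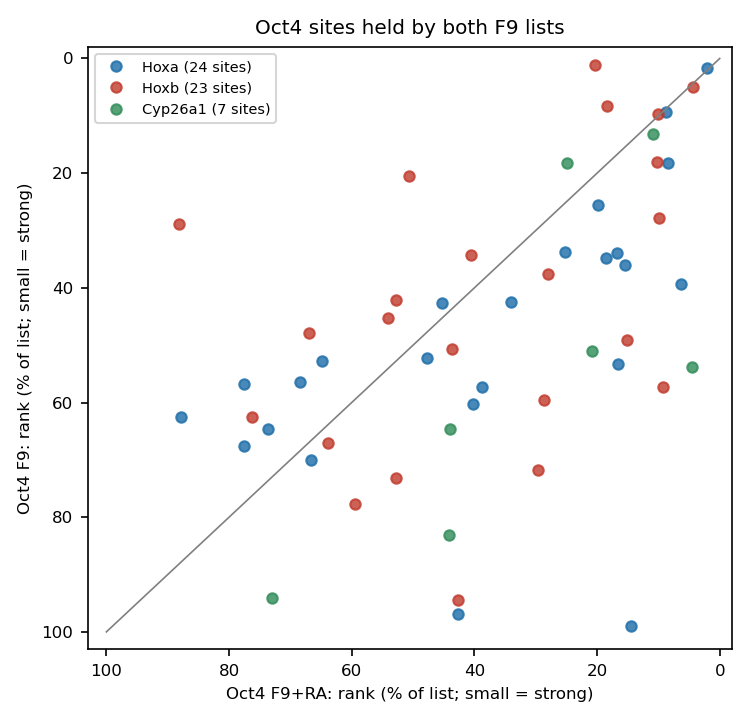
Rank percent of the 54 Oct4 sites held by both lists, in F9+RA cells (x axis) and in F9 cells (y axis), strong peaks towards the upper right; the line marks equal rank percent. Points below the line ranked higher in F9+RA cells, which holds for 35 sites.

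The largest shift of the 54 was in the Hoxa window, a difference of -84.5 rank points (F9+RA minus F9). At 52102186 to 52104731 Oct4 scored 302 in F9+RA cells, at 14.4% of the list, and 50.7 in F9 cells, at 98.9% of the list and so close to the lowest score. Among the Sox libraries of ES cells, and separately among the Oct4 libraries, this site had its strongest rank percents in those of the Sox2 line. Across both sets the order did not hold, since Oct4 of Sox17EK line A (29.3%) ranked above Sox2 B (33.8%). The pattern was picked out after its values had been seen. The Sox2 libraries scored 545 and 134 and the Oct4 libraries of the Sox2 line scored 3048 and 210 (A and B). The Sox17EK libraries scored 82.9 and 50.3 and the Sox2KE libraries 75.7 and 102, and the Sox17 libraries had no peak. Oct4 scored 325 with Sox17EK A, 73.6 with Sox2KE A and 95.7 with Sox17. The replicates of the Sox2 line differed widely at this site, 1.28% against 22.4% of the list for Oct4 and 4.25% against 33.8% for Sox2. These are the ES peaks that overlap the F9+RA peak itself, 52103310 to 52103695. The merged site also holds a Sox2 B peak of 154 and a peak of 84.6 in Oct4 of Sox17EK line B that lie beside it.

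At 52152380 to 52155034, near the middle of the Hoxa window, Oct4 scored 513 (6.26%) in F9+RA cells against 158 (39.3%) in F9 cells, and Sox17 scored 62.8 (59.1%) in F9+RA cells. The merged site was held by 16 of 18 libraries, and 12 of its 13 ES libraries had a peak that overlapped the F9+RA peak (the Sox2 B peak of 51.5 did not). In ES cells the Oct4 libraries lay between 7.82% (Sox17 line A) and 22.6% (Sox2KE line B). At 52255659 to 52256725 Oct4 scored 270 (16.6%) in F9+RA cells against 110 (53.3%) in F9 cells. These sites ranked more than 25 points higher in F9+RA cells, and the second had no Sox17 peak there.

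Several other Hoxa sites ranked in the strongest 25% of the F9+RA list. Oct4 scored 433 (8.39%) in F9+RA cells against 324 (18.3%) in F9 cells at 52124726 to 52127899. At 52107433 to 52111224 it scored 424 (8.68%) in F9+RA cells against 527 (9.27%) in F9 cells. At 52165813 to 52168898 the scores were 267 in F9+RA cells against 185 in F9 cells. At 52174869 to 52177593 they were 285 in F9+RA cells against 173 in F9 cells, and at 52194823 to 52197202 they were 246 in F9+RA cells against 180 in F9 cells. Between the lists these 5 sites differed by less than the shift of 25 points used above.

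The strongest Oct4 site of the Hoxa window lay at its edge and had a peak in every library but Sox17 of F9+RA cells. At 52053538 to 52057926 Oct4 scored 867 (rank 1806, 2.14%) in F9+RA cells against 1416 (rank 1103, 1.71%) in F9 cells. Oct4 of lysine lines scored 3100 and 424 with Sox2 and 3100 and 1699 with Sox17EK. Oct4 of glutamate lines scored 504 and 185 with Sox2KE and 1993 with Sox17. Sox2 scored 696 and 566, Sox17EK 299 and 126, Sox2KE 257 and 759, and Sox17 of ES cells 767 and 352. Its rank percent in the 15 ES lists ran between 0.0937% (Oct4 of Sox17EK line A) and 37.0% (Oct4 of Sox2KE line B).

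In the Hoxb window the best Oct4 site of F9 cells ranked lower in F9+RA cells. At 96051018 to 96052713 Oct4 scored 226 (rank 17130, 20.3%) in F9+RA cells against 1750 (rank 682, 1.06%) in F9 cells. In ES cells of lysine lines Oct4 scored 1592 and 613 with Sox2 and 3100 and 1657 with Sox17EK. In glutamate lines it scored 478 and 360 with Sox2KE and 895 with Sox17. The 4 Oct4 lists of lysine lines held it between 0.0937% and 4.08%, and the 3 of glutamate lines between 2.18% and 17.5%, so the groups overlapped. All 8 Sox libraries of ES cells had a peak, between 1.88% (Sox17EK A) and 67.1% (Sox17 A), and Sox17 of F9+RA cells had none.

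A site on the other side of the Hoxb window had the opposite pattern. At 96186818 to 96189636 F9 cells had no Oct4 peak, while Oct4 of F9+RA cells scored 362 (rank 9314, 11.1%). Sox17 of F9+RA cells scored 447 there (rank 454, 1.14%), the best place of Sox17 in any of the 3 windows. The Oct4 peak of F9+RA cells, 96188237 to 96189105, enclosed the Sox17 peak, 96188445 to 96189081. This was the 1 site of a single F9 condition that was in the strongest 25% of the F9+RA list.

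Of the 15 ES libraries, 12 had a peak that overlapped the F9+RA peak, and the merged site also holds a Sox17EK A peak of 58.8 that overlapped neither the Oct4 nor the Sox17 peak of F9+RA cells. Among Sox libraries the lysine protein Sox2 scored 226 and 159, and Sox17EK had no overlapping peak in A or B. The glutamate proteins scored 396 and 669 for Sox2KE and 66.7 for Sox17 A, with no peak for Sox17 B. Both Sox2KE libraries ranked it higher (7.39% and 7.88%) than the Sox2 libraries (17.1% and 27.5%). Oct4 scored 442, 99.0, 345 and 227 in the 4 libraries of lysine lines and 205, 75.5 and 57.0 in the 3 of glutamate lines. The site was picked for its F9 pattern, and no test was made of the single site.

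Other Hoxb sites ranked high in 1 F9 list or in both. At 96235861 to 96236774 Oct4 scored 617 (4.40%) in F9+RA cells against 780 (5.0%) in F9 cells, the best Oct4 place of F9+RA cells in the window. At 96063636 to 96066291 the scores were 386 in F9+RA cells against 509 in F9 cells, and at 96226506 to 96227963 they were 383 and 329 in the same order. Those 3 sites held similar places in both lists.

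At 96175966 to 96177003 Oct4 scored 408 (9.18%) in F9+RA cells against 101 (57.3%) in F9 cells. At 96205231 to 96208420 it scored 291 (15.1%) in F9+RA cells against 122 (49.1%) in F9 cells, with a Sox17 score of 121. At 96131976 to 96134542 it scored 388 (9.98%) in F9+RA cells against 225 (27.8%) in F9 cells, with a Sox17 score of 166. All 3 ranked higher in F9+RA cells, the first 2 by more than 25 points.

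Of the 23 Hoxb sites of both lists, 10 ranked higher in F9 cells, 2 of them by at least 25 points. At those 2, Oct4 scored 55.9 (88.2%) in F9+RA cells against 217 (28.9%) in F9 cells at 96060888 to 96062134, and at 96171728 to 96172413 it scored 93.2 (50.6%) in F9+RA cells against 297 (20.5%) in F9 cells. At 96112000 to 96113708 it scored 247 (18.4%) in F9+RA cells against 570 (8.21%) in F9 cells.

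Sox17 of F9+RA cells was found at Oct4 peaks of the windows about as often as elsewhere. Of 97 Oct4 peaks of F9+RA cells, 22 (22.7%) were overlapped by a Sox17 peak, against 24.0% of the whole list. Of 82 Oct4 peaks of F9 cells, 19 (23.2%) were, against 23.5% of the whole list. From the side of Sox17, 22 of its 32 window peaks (68.8%) overlapped an Oct4 peak of F9+RA cells, against 53.1% of all Sox17 peaks. For Oct4 of F9 cells this was 20 of 32 (62.5%), against 43.0% of all Sox17 peaks. The share of Sox17 peaks with Oct4 was thus above that of the list for both conditions, in windows that were dense in Oct4 peaks. The part of that density in the shares was not tested.

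By site, Sox17 of F9+RA cells was at 28 of 141. Oct4 was present in both F9 lists at 17 of these, in F9+RA cells alone at 4, in F9 cells alone at 2 and in neither at 5. In the Hoxb window 4 sites were in the strongest 25% of the Sox17 list, with scores of 447, 166, 121 and 102. In the Hoxa window 3 sites were, at 52140187 to 52142991 (145), 52107433 to 52111224 (141) and 52118388 to 52119168 (115). At the first, Oct4 scored 231 in F9+RA cells against 244 in F9 cells. At the last, F9+RA cells had no Oct4 peak and F9 cells had one of 75.8. Oct4 of F9+RA cells was thus present at 6 of these 7 sites. It was also present at the Cyp26a1 site in the strongest 25% of the Sox17 list, 37777862 to 37778454 (106). No matching share over the genome was computed for these strong sites or for the split of the 28. These counts therefore do not show whether the windows differ from elsewhere.

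**Figure D3:**
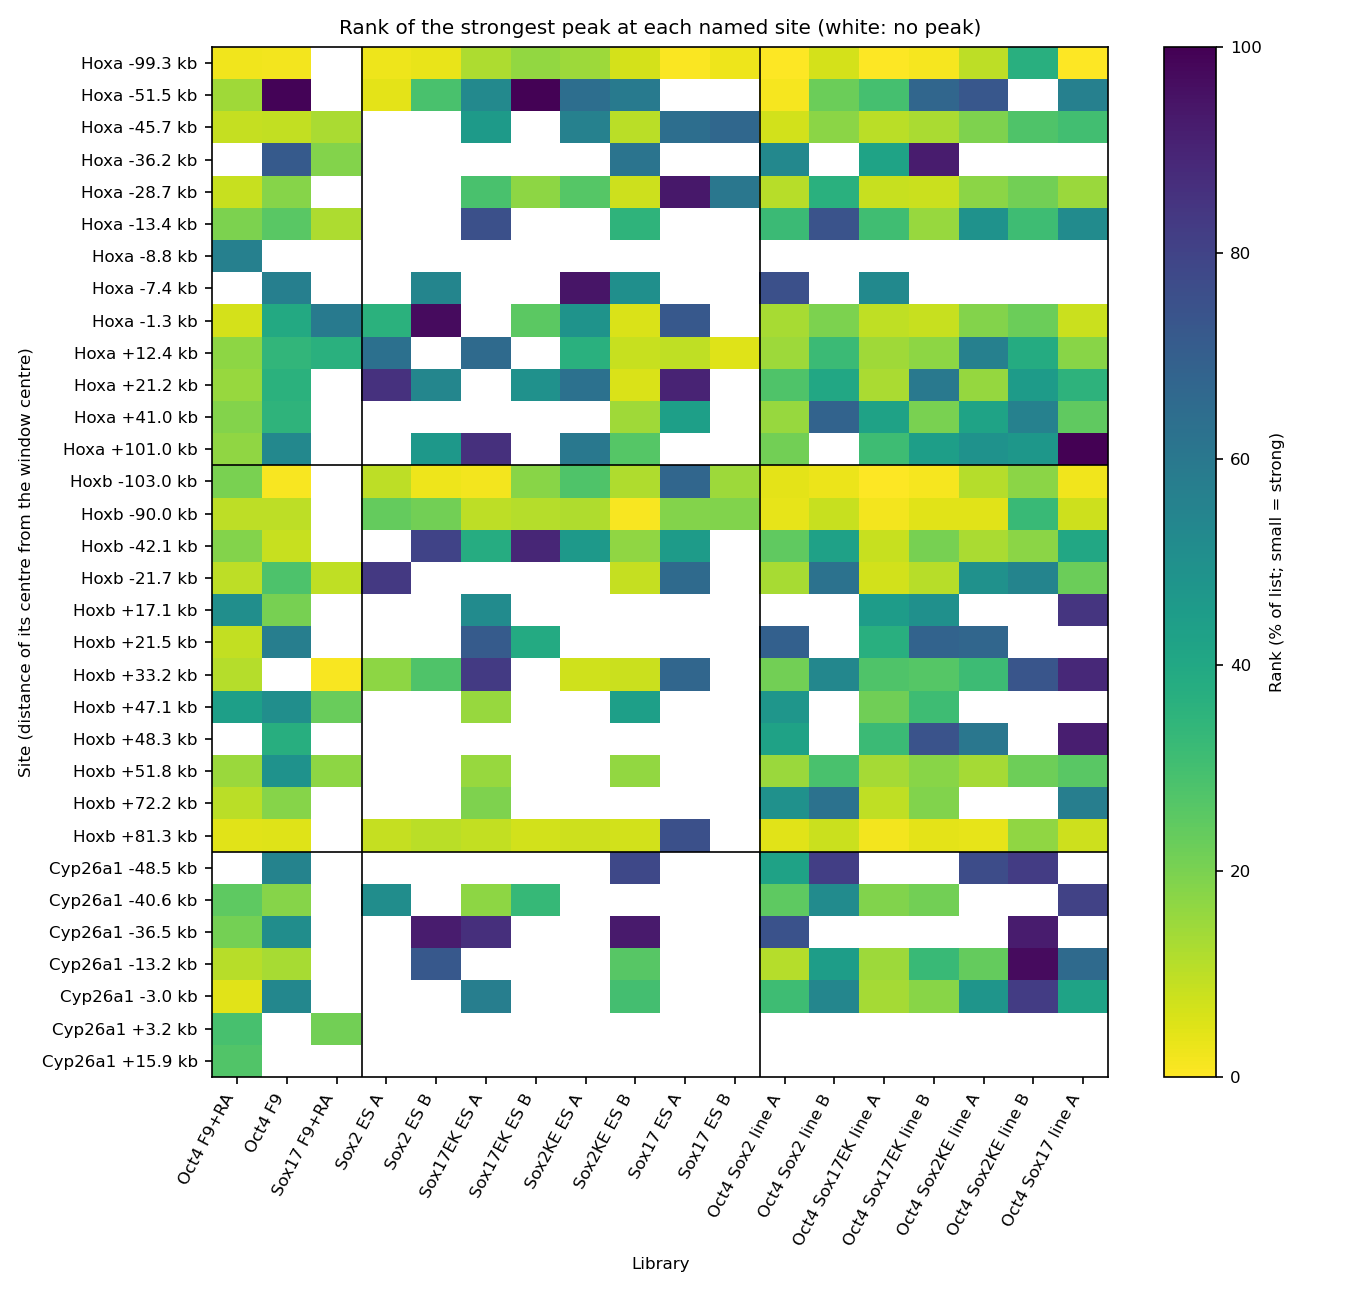
Rank percent of the strongest peak in each of the 18 libraries (columns) at the 32 sites named for the F9 libraries (rows, given by window and distance of the site centre from the window centre in kb); bright cells are strong peaks and white is no peak. The sites at -99.3 kb in Hoxa and -103.0 kb in Hoxb are bright in most columns, and those at +3.2 kb and +15.9 kb in Cyp26a1 are filled in F9+RA cells only.

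Sites of the Hox windows were shared widely. Of 141 sites, 49 (34.8%) had a peak in 9 or more of the 18 libraries, against 14.4% of 190862 sites in the genome. They were 25 of 47 in Hoxa and 21 of 67 in Hoxb, but 3 of 27 in Cyp26a1. No site was held by all 18 libraries, and the 3 sites held by 17 lacked Sox17 of F9+RA cells. These were the Hoxa site at 52053538 and the Hoxb sites at 96051018 and 96063636, which were also the only sites with a peak in all 8 Sox libraries of ES cells. Peaks of different libraries within a merged site can lie side by side: at 96063636, 13 of the 15 ES libraries overlapped the Oct4 peak of F9+RA cells itself. All 7 Oct4 libraries of ES cells shared 30 sites, 16 in Hoxa, 12 in Hoxb and 2 in Cyp26a1. For sites with all 7 Oct4 or all 8 Sox libraries no share of the genome was computed. Those counts therefore do not show whether the windows differ from elsewhere.

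In F9 libraries and in no ES library were 18 of 141 sites (12.8%), against 27.3% of all sites in the genome. Of these 14 had Oct4 of F9+RA cells, 2 had Oct4 of F9 cells and 4 had Sox17. They were 3 in Hoxa, 8 in Hoxb and 7 in Cyp26a1. Conversely 48 sites (34.0%, against 42.3% in the genome) had no F9 library, 14 in Hoxa, 23 in Hoxb and 11 in Cyp26a1. A lack of a peak is a lack of a call in a list of unknown depth.

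Sites that were strong in some ES lists included some that the F9 lists lacked or ranked lower than those lists. At 52181760 to 52185683 in Hoxa all 7 Oct4 libraries of ES cells had a peak, of 880 and 87.9 with Sox2, 1876 and 423 with Sox17EK, 201 and 129 with Sox2KE and 107 with Sox17. Neither Oct4 list of F9 cells had one. At 96178669 to 96182570 in Hoxb, Sox2KE B scored 1414 and Oct4 of Sox17EK line A 1070, while Oct4 scored 169 in F9+RA cells against 166 in F9 cells. At 96191089 to 96195552 Oct4 of Sox17EK line A scored 1723, Oct4 of F9+RA cells 94.5, and F9 cells had no peak.

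With these, 44 sites qualified by their ES libraries alone (at least 4 of them), 21 in Hoxa, 21 in Hoxb and 2 in Cyp26a1. Such a site had its best rank most often in Oct4 of Sox17EK line A (21 sites) or Sox2KE B (12 sites), the longest list among the Oct4 and among the Sox libraries of ES cells. The remaining 65 sites were held by at most 6 libraries, 40 of them by 1. Their highest Oct4 score was 145 in F9+RA cells against 65.4 in F9 cells.

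The share of a list that lay in the 3 windows was computed for each library. At equal length, the 5836 strongest peaks of each list, it moved beyond the replicate spread (SD of 0.0408 points) in 9 of 18 lists. Libraries without a replicate, among them all F9 lists, were held to the same spread. In the whole lists it was 0.115% for Oct4 in F9+RA cells, 0.127% for Oct4 in F9 cells and 0.0805% for Sox17 in F9+RA cells, while the windows make up 0.0216% of the 2641 Mb spanned by the peaks. Among Sox libraries of ES cells with lysine it was 0.118% and 0.121% for Sox2 and 0.203% and 0.106% for Sox17EK. Among those with glutamate it was 0.121% and 0.158% for Sox2KE and 0.233% and 0.154% for Sox17. The 2 groups overlapped.

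The lysine Sox libraries averaged 0.137% ± 0.0443 and the glutamate libraries 0.166% ± 0.0474 (SD, n = 4 each). These were replicates A and B of Sox2 and Sox17EK against those of Sox2KE and Sox17. They were exchanged as separate units in the test, so its p does not cover the spread between proteins. The difference of -0.0293 points was not detected by an exact two-sided permutation test over libraries (p = 0.400, Benjamini-Hochberg adjusted p = 0.800 over 2 tests, where the smallest p allowed was 0.0286). Both Sox17 libraries of ES cells had 0 peaks in the Cyp26a1 window, and their lists were the shortest, 10301 and 5836 peaks. The other 6 Sox libraries had between 2 and 14 there.

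The Oct4 libraries of ES cells showed no detectable difference either. Those of lysine lines lay at 0.159% and 0.204% for the Sox2 line and 0.165% and 0.231% for the Sox17EK line. Those of glutamate lines lay at 0.183% and 0.183% for the Sox2KE line and 0.199% for the Sox17 line. Lysine lines averaged 0.190% ± 0.0340 (n = 4) and glutamate lines 0.188% ± 0.00928 (n = 3), a difference of 0.00169 points (exact two-sided permutation p = 0.943, adjusted p = 0.943).

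In a comparison added because this separation had been seen in the data, the Oct4 lists of F9+RA and F9 cells held a smaller share in the windows than the 7 of ES cells. The F9+RA and F9 lists averaged 0.121%, against 0.189% ± 0.0247 (SD, n = 7, range 0.159% to 0.231%) in ES cells. The difference was -0.0680 points (exact two-sided permutation p = 0.0278, the smallest that 36 arrangements allow). This p restates the separation that prompted the comparison and adds no support to it. The comparison also pools the RA-treated and the untreated F9 library in a single group. The difference did not pass 0.05 among the 5836 strongest peaks of each list (-0.0685 points, exact permutation p = 0.139) or at scores of at least 100 (-0.0619, exact permutation p = 0.0556). Among the 5836 strongest peaks both F9 lists had 0.0685%, and so did Oct4 of Sox2KE line A. With either F9 list left out the smallest p that can be reached is 0.125. F9 and ES libraries also differ in the antibodies named, and only the ES cells were given doxycycline to express a Sox transgene. Cell line, antibody, doxycycline and transgene therefore cannot be told apart.

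By window the values were as follows. Per 1000 peaks of its own chromosome, the Hoxa window held 6.81 Oct4 peaks in F9+RA cells against 8.84 in F9 cells, below the range of 14.0 to 21.4 in ES cells. The Hoxb window held 7.43 in F9+RA cells against 8.14 in F9 cells, below the range of 9.57 to 15.5 in ES cells. The Cyp26a1 window held 6.71 in F9+RA cells against 4.95 in F9 cells, beside a range of 4.63 to 6.50 in ES cells. As a share of the whole list the Cyp26a1 window held 0.0190% in F9+RA cells against 0.0139% in F9 cells, both within the range of 0.0132% to 0.0201% in ES cells. The place of F9+RA cells against ES cells in this window thus depended on the denominator.

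**Figure D4:**
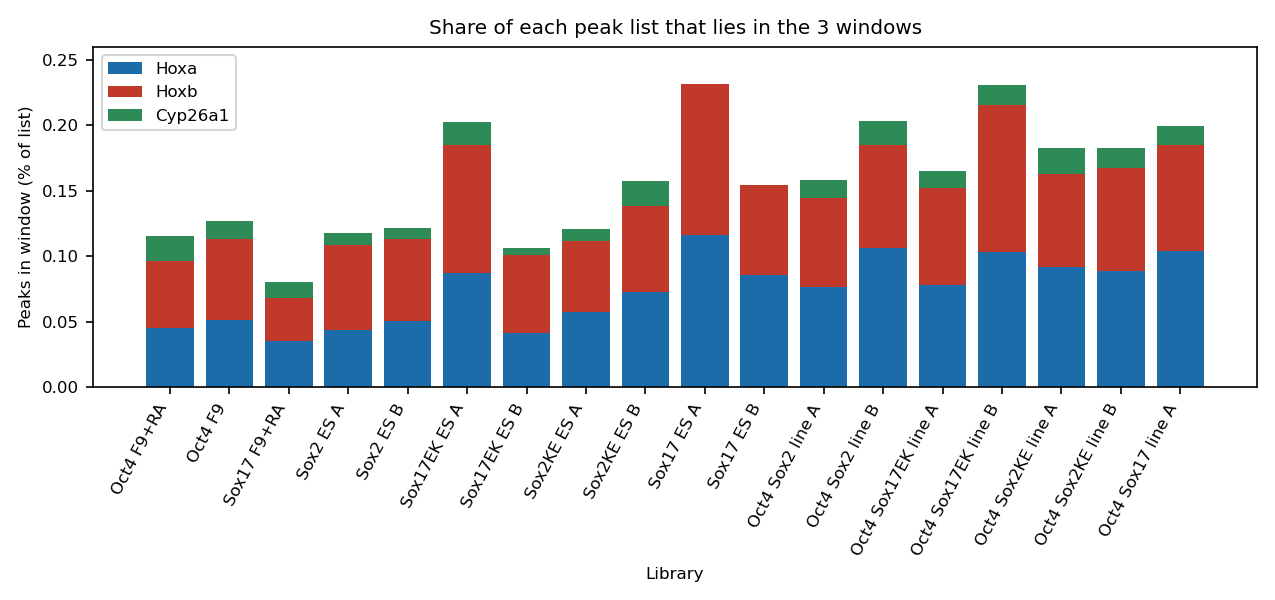
Share of each list, in percent of its peaks, that lay in the Hoxa, Hoxb and Cyp26a1 windows (stacked bars, 1 library each). The Oct4 bars of F9+RA (0.115%) and F9 cells (0.127%) are lower than all 7 Oct4 bars of ES lines (0.159% to 0.231%), a separation not kept among the 5836 strongest peaks of each list, and the 2 Sox17 ES bars have no Cyp26a1 part.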

How the data were processed

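Chromatin of F9 and KH2 ES cells was immunoprecipitated with antibodies to V5, Oct4 and Sox17 and sequenced, per the labels' protocols. Of 20 samples, 18 peak lists were used, while both mock libraries were not analysed here. Each deposited list has 5 columns: chromosome, start, end, a MACS peak name and a score. The score was taken as 10 times −log10 of a p-value from the lowest score of each deposited list, 50 to 50.03, since no label states the scale. Coordinates are mm9, per the submitters' processing notes, with starts printed counting from 1. The aligner, the caller's version, its settings and its control were not given in the sources used here. Read depth is unknown, so no counting interval can be given.

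Peaks were ranked within each list, and peaks matched where intervals overlapped by at least 1 bp. Sites are merged intervals of all 18 lists. A site was named where an F9 library held it in the strongest 25% of its list, where at least 4 ES libraries held it, or where it was the strongest Oct4 site of a single F9 condition in its window. The rule named 76 sites, and of the 44 named for ES libraries alone only a few are given singly. Shares of lists were compared over libraries by exact two-sided permutation tests. The lysine and glutamate tests exchanged libraries of the same line as separate units, so their p-values do not cover the spread between lines. No label ties replicates A and B to separate cultures, and p-values therefore cover the spread among these libraries alone, which may be technical. The matching was checked on altered copies of a deposited list with a known share of matching peaks, and against a direct search on a single chromosome. The alternatives were the matching rule, a score of at least 100, equal list lengths, windows widened by 50 kb, each library left out, and a replicate block. The regions, genes and lists were chosen with earlier results of these data known. Tools were SciPy 1.17.1, pandas 2.3.3, NumPy 2.4.6 and Matplotlib 3.10.9 under Python 3.11.15.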

Additional observations from a re-analysis of the deposited data

Results flagged for a closer look

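Of 16 groups of 4 to 7 libraries checked for a value far from the rest, 3 were marked, and chance marks about 1 group in 20. The groups share libraries and windows, so their marks are not independent of each other. Among the 4 lysine Sox libraries of ES cells, Sox17EK replicate A had 0.203% of its list in the 3 windows, apart from the other 3 at 0.106% to 0.121%. The same library had 0.0979% of its list in the Hoxb window, again the highest of the 4. Among the 7 Oct4 libraries of ES cells, replicate B of the Sox17EK line had 0.113% of its list in the Hoxb window, the highest of the 7. Both libraries come from the Sox17EK line, but from different replicate letters.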

How the results depend on the processing

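The comparison of F9 lists with ES lists for Oct4 did not pass 0.05 with the 5836 strongest peaks of each list (-0.0685 points, exact permutation p = 0.139) or with scores of at least 100 (-0.0619, p = 0.0556). Leaving out 1 library gave -0.0738 to -0.0609, with an exact permutation p of 0.125 without either F9 list, the smallest possible there. The lysine minus glutamate difference kept its sign and stayed undetected for Sox libraries (-0.0513 to -0.00715 when 1 library was left out). For Oct4 libraries its sign changed with the library left out (-0.0121 to 0.0121), and it was 0.0800 points among the 5836 strongest peaks (exact permutation p = 0.200). With a replicate block (labels exchanged within a replicate letter) the differences were -0.0293 (exact p = 0.333) and 0.00169 (exact p = 0.944).

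Counts of F9 peaks moved with the definition of a match and with the peaks used. Oct4 peaks of F9+RA cells with an F9 partner numbered 62 as reported, 40 with midpoints within 200 bp, 36 among the 39768 strongest peaks of each list and 34 at scores of at least 100. Those without a partner numbered 35, and then 57, 13 and 15. F9 peaks without a partner numbered 24 as reported, 42 by midpoints and 15 at scores of at least 100. Sox17 was at 22 Oct4 peaks of F9+RA cells, and at 9 at scores of at least 100. An overlap of 50% of the shorter peak moved none of these counts by more than 1.5 times, nor did windows widened by 50 kb move the 3 counts of partners (they were not run for the Sox17 count). The share of a list moved beyond the replicate spread in 9 of 18 lists at equal length, in 5 at scores of at least 100 and in 1 with wider windows. Unknown depth and single F9 libraries limit every F9 comparison.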
